A study of Rattus norvegicus with 12 samples.

Results

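The genes that carry the calcium cycle of the heart muscle cell, 9 of them, were followed in cultured neonatal rat ventricular cardiomyocytes after small interfering RNA (siRNA) against Btg1, Btg2 or both. The members were chosen by name: Ryr2, Trdn, Casq2, Jph2, Cacna1c, Atp2a2, Pln, Sln and Slc8a1. All 9 were found among the 17419 gene rows of the deposited count and TPM tables (TPM, a share of the library's transcripts, is a level per gene length), and all 9 passed the filter on low counts that kept 12535 genes. Each of 4 groups had 3 libraries of total RNA, made 48 h after transfection of wildtype Sprague-Dawley cells taken on the day of birth. Double knockdown cultures received 10 nM of the Btg1 siRNA and 10 nM of the Btg2 siRNA. Btg1 knockdown cultures received 10 nM of the Btg1 siRNA with 10 nM of scrambled siRNA, and Btg2 knockdown cultures 10 nM of the Btg2 siRNA with 10 nM of scrambled siRNA. Scramble cultures received 20 nM of scrambled siRNA, so the scrambled dose also differed between groups. BTG1 and BTG2 are related antiproliferative proteins and partners of the CCR4-NOT complex, which shortens the poly(A) tails of messenger RNA. The cultures were enriched for cardiomyocytes by removing fibroblasts before transfection. Whether the 3 libraries of a group stand for separate animals or dishes is not in the labels, and the p-values therefore measure how far these libraries scatter, possibly for technical reasons alone.

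In each heartbeat, calcium enters through the L-type channel, whose pore is encoded by Cacna1c, and opens the ryanodine receptor, encoded by Ryr2, in the membrane of the sarcoplasmic reticulum, the internal calcium store. Calsequestrin (Casq2) binds calcium inside the store and is held near the release channel by triadin (Trdn), while junctophilin (Jph2) tethers the store to the cell surface. The pump SERCA2 (Atp2a2) returns calcium to the store under the restraint of the small proteins phospholamban (Pln) and sarcolipin (Sln), and the sodium-calcium exchanger NCX1 (Slc8a1) moves the rest out of the cell. Sarcolipin is in rodents mainly an atrial and skeletal muscle protein.

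Library totals ran from 24434925 to 46206581 counts. Btg1 averaged 70.4 ± 3.57 TPM in the double knockdown and 89.1 ± 6.73 TPM in the Btg1 knockdown, against 403 ± 5.06 TPM in the Btg2 knockdown and 382 ± 3.27 TPM in scramble cultures (SD, n = 3 each). Btg2 averaged 54.3 ± 1.06 TPM in the double and 66.5 ± 2.76 TPM in the Btg2 knockdown, against 137 ± 2.06 TPM in the Btg1 knockdown and 109 ± 5.31 TPM in scramble cultures (SD, n = 3 each), so the Btg2 knockdown was partial. Cardiomyocyte markers were abundant in every library: 9 of 10 listed had rows, and their summed level was 34815 to 35660 TPM in the double, 33127 to 37845 TPM in the Btg1 and 34903 to 39054 TPM in the Btg2 knockdown, against 32704 to 33274 TPM in scramble cultures. The 8 fibroblast markers summed to 5497 to 6223, 5559 to 6335 and 6666 to 6807 TPM in the double, Btg1 and Btg2 knockdowns, against 6886 to 7057 TPM in scramble cultures. Of these 8 markers 7, 7 and 5 fell in the double, Btg1 and Btg2 knockdowns against scramble, where 19.5%, 17.8% and 13.6% of all genes tested fell. The 6 endothelial markers summed to 28.4 to 32.1 TPM in the double, 34.7 to 39 TPM in the Btg1 and 34.7 to 35.6 TPM in the Btg2 knockdown, against 41.1 to 43.3 TPM in scramble cultures. Of these 6 markers 1 rose and 4 fell (83.3% called) in the double knockdown. In the Btg1 knockdown 1 rose and 1 fell (33.3%), and in the Btg2 knockdown 3 fell (50%). Of all genes 38.9%, 36.5% and 30% were called in these comparisons against scramble. The 7 macrophage and leukocyte markers summed to 44.7 to 46.9 TPM in the double, 37 to 45.4 TPM in the Btg1 and 36.9 to 38.7 TPM in the Btg2 knockdown, against 49.3 to 63.6 TPM in scramble cultures. Of these 7 markers 1 fell (14.3% called) in the double, 2 fell (28.6%) in the Btg1 and 4 fell (57.1%) in the Btg2 knockdown. None of them rose. The shares of all genes called were again 38.9%, 36.5% and 30%. The 5 smooth muscle markers summed to 2751 to 3000 TPM in the double, 2993 to 3724 TPM in the Btg1 and 2944 to 3308 TPM in the Btg2 knockdown, against 2552 to 2790 TPM in scramble cultures. Acta2 made up most of these sums (2105 TPM in scramble cultures) and was not called against scramble. Of the 5, 3 rose and 1 fell in the double, 2 rose and 1 fell in the Btg1 and 1 rose and 1 fell in the Btg2 knockdown. Of all genes tested 38.9%, 36.5% and 30% were called there. The part of this cell mixture in the results was not tested, and in RNA from whole cultures fewer cells of a type and less RNA per cell cannot be told apart.

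Per gene length, 3 members stood far above the others in all groups. In scramble cultures the order was Pln (1076 ± 36.4 TPM), Casq2 (908 ± 34.3 TPM) and Atp2a2 (816 ± 10.5 TPM), then Jph2 (226 ± 21.1 TPM), Trdn (65.9 ± 3.22 TPM), Ryr2 (59.9 ± 0.693 TPM), Slc8a1 (36.0 ± 0.651 TPM), Cacna1c (30.5 ± 0.379 TPM) and Sln (17.6 ± 1.60 TPM; SD, n = 3 each). The scramble libraries of neighbours in that order did not overlap. In the double and Btg1 knockdowns Casq2 stood first and Pln next, and Ryr2 and Trdn did not differ beyond their spread (55.03 ± 1.69 and 54.7 ± 6.74 TPM in the double knockdown). In the Btg2 knockdown Pln was first, and Atp2a2 and Casq2 had overlapping libraries (950 ± 32.3 and 878 ± 47.5 TPM). Levels per length rest on the gene models used by the authors: from the ratio of counts to TPM, the length behind Slc8a1 was 24.8 times and that behind Ryr2 13.7 times the length behind Pln, while Sln had 0.132 of it. Sln was thus the least counted member, with 53 to 128 reads in a library.

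**Figure D1:**
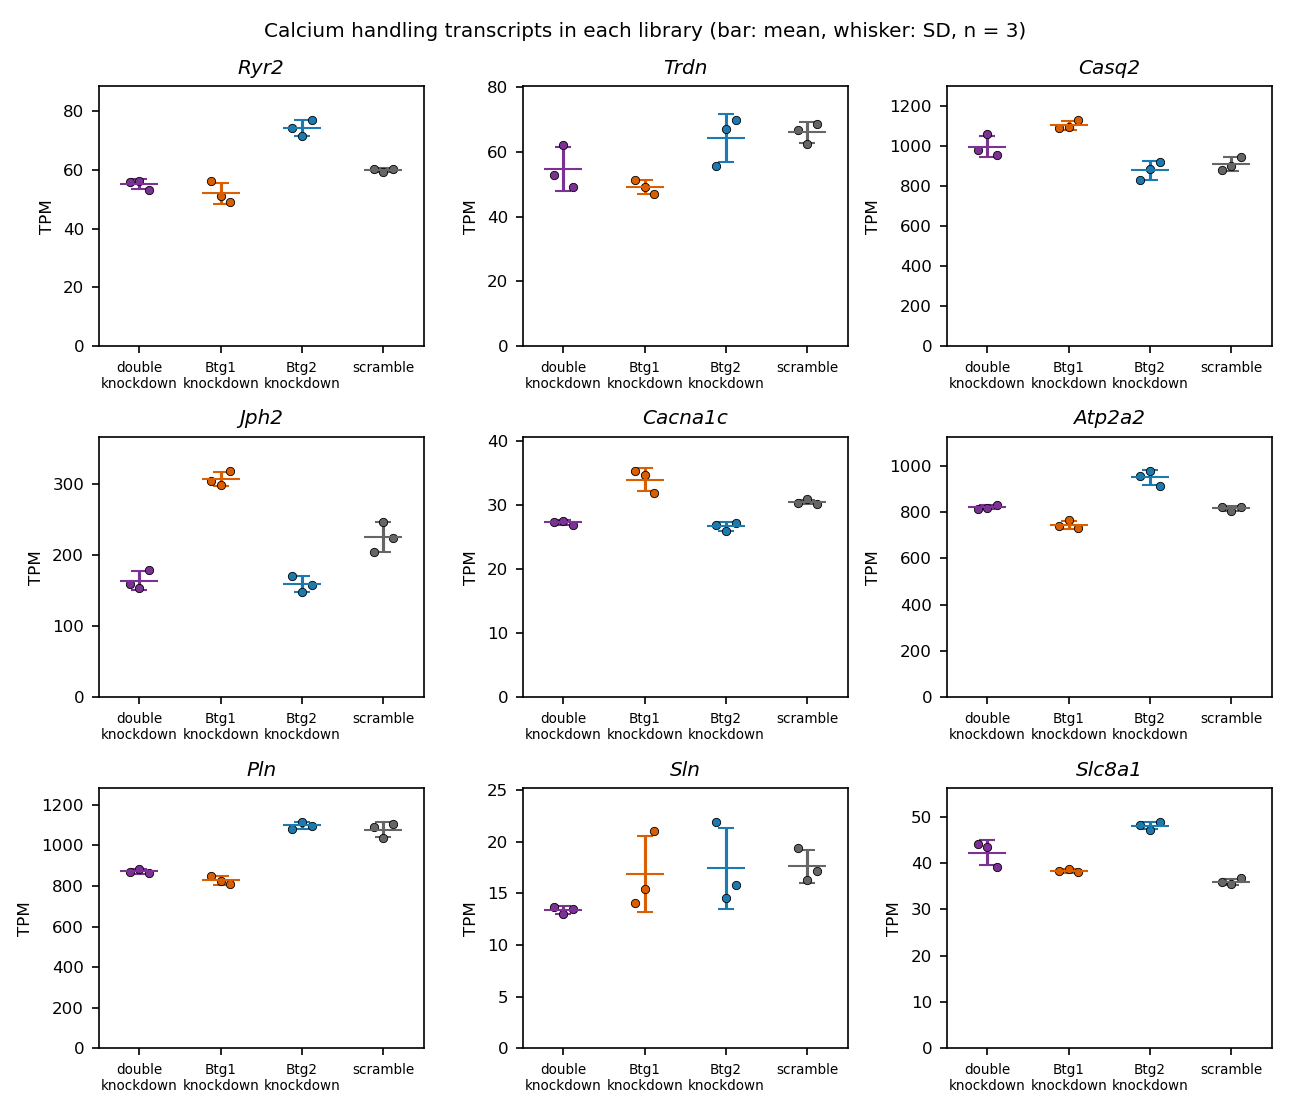
TPM of the 9 members (vertical axes from 0, 1 panel per gene) in each of 12 libraries; points are libraries, bars are group means and whiskers are SDs (n = 3). Jph2 stands at 299 to 319 TPM in the Btg1 knockdown and at 149 to 179 TPM in the double and Btg2 knockdowns, and Pln is at 810 to 885 TPM in each library that received the Btg1 siRNA.

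Against scramble, 7 of the 9 members changed in the double knockdown, 2 higher and 5 lower, where 38.9% of all genes tested were called (19.4% higher and 19.5% lower). In the Btg1 knockdown 7 changed, 3 higher and 4 lower, against 36.5% of all genes (18.7% higher and 17.8% lower). In the Btg2 knockdown 5 changed, 3 higher and 2 lower, against 30% of all genes (16.4% higher and 13.6% lower). Calls are at an adjusted p under 0.05, from the quasi-likelihood F test of edgeR with p-values adjusted by Benjamini-Hochberg across the tested genes. The members' absolute log2 changes had a median of 0.22, 0.20 and 0.18 in the double, Btg1 and Btg2 knockdowns, where that of all genes tested was 0.16, 0.15 and 0.14. No member moved by 1.5-fold against scramble in any of these comparisons, which share their scramble libraries. The libraries of 8, 8 and 5 members did not overlap with scramble in the double, Btg1 and Btg2 knockdowns, where 46.8%, 50.1% and 45.7% of all genes tested did not. The 4 members Ryr2, Atp2a2, Cacna1c and Jph2 were called in both single knockdowns, each in opposite directions, as were 3.79% of all genes tested. The Atp2a2 call in the Btg1 knockdown ended in 5 of 21 alternatives.

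**Figure D2:**
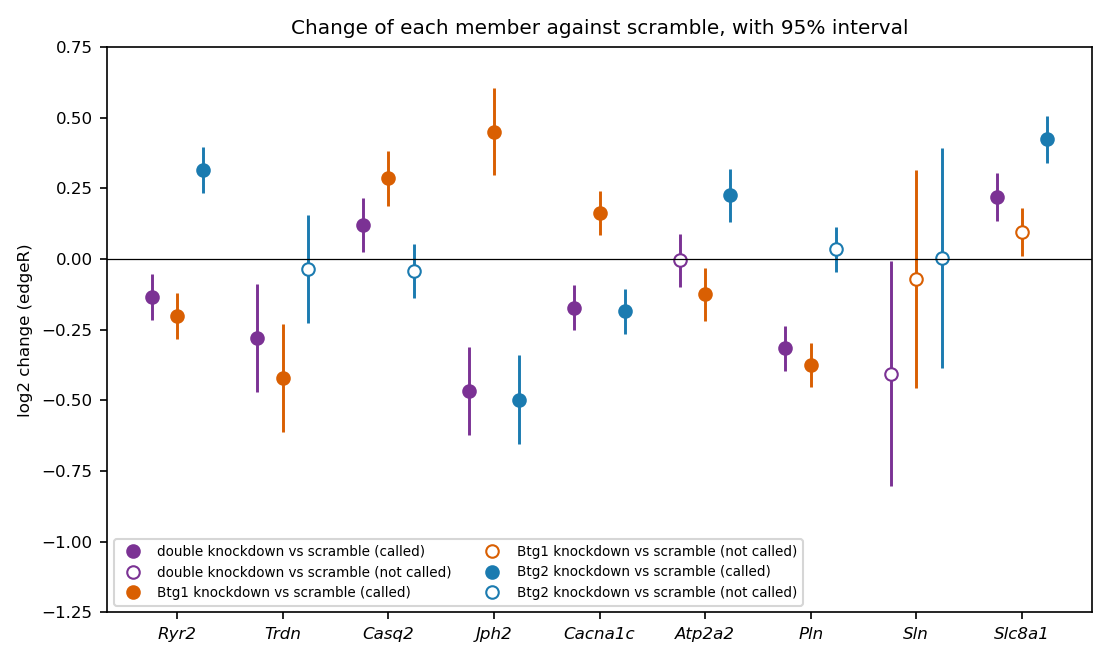
Log2 change of each member (vertical axis) in the double, Btg1 and Btg2 knockdowns against scramble, fitted by edgeR; lines are 95% intervals and filled points passed an adjusted p of 0.05. Filled points lie on opposite sides of 0 for Ryr2, Jph2, Cacna1c and Atp2a2 in the single knockdowns, and the intervals of Sln are the widest.

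Jph2, the tether between the store and the surface membrane, had the widest range of group means of the 9 members, 0.95 on the log2 scale. It stood at 159.9, 154.2 and 179.4 TPM in double knockdown replicates 1 to 3 and at 304.5, 299.2 and 318.8 TPM in the Btg1 knockdown. It stood at 170.8, 149.0 and 158.0 TPM in the Btg2 knockdown and at 205.2, 247.3 and 224.7 TPM in scramble cultures. All 3 Btg1 knockdown libraries were above, and all 6 libraries with the Btg2 siRNA below, the scramble libraries. The log2 changes of Jph2 against scramble were -0.47 ± 0.07 (double), 0.45 ± 0.07 (Btg1) and -0.50 ± 0.07 (Btg2 knockdown), with SEs, and edgeR gave adjusted p-values of 1.4e-04, 2.0e-04 and 1.5e-04. Adding the Btg2 siRNA to the Btg1 siRNA left 0.529 of the Jph2 level, a log2 change of -0.92 ± 0.07 between the double and the Btg1 knockdown (edgeR adjusted p = 9.6e-07). Between the double and the Btg2 knockdown the difference was 0.03 (95% interval -0.13 to 0.19), which did not pass.

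Cacna1c, the pore of the L-type channel through which calcium enters the cell, moved in the same 3 directions as Jph2 by smaller amounts. It stood at 27.4, 27.5 and 26.9 TPM in the double knockdown, 35.3, 34.7 and 31.9 TPM in the Btg1 knockdown, 26.9, 25.9 and 27.2 TPM in the Btg2 knockdown and 30.3, 30.9 and 30.2 TPM in scramble cultures. The Btg1 knockdown libraries were the highest and those with the Btg2 siRNA the lowest, with no overlap with scramble. The log2 changes were -0.17 ± 0.04 in the double, 0.16 ± 0.04 in the Btg1 and -0.18 ± 0.04 in the Btg2 knockdown against scramble (SE; edgeR adjusted p = 9.8e-04, 0.0017 and 8.0e-04). Between the double and the Btg1 knockdown it fell by 0.33 ± 0.04 (edgeR adjusted p = 1.3e-06). Between the double and the Btg2 knockdown it did not pass, at 0.01 with a 95% interval of -0.07 to 0.09.

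The windows around the annotated starts of these genes are shown because, of the 3 members called in all 3 comparisons against scramble, Jph2 and Cacna1c shared their direction in each. Each runs from 250 bases before to 50 bases after the RefSeq gene start in the rat assembly GRCr8, so it covers the upstream flank and the first bases of the transcript. Jph2 is at chr3:172477872-172478171 and Cacna1c at chr4:154051699-154051998, both on the minus strand. Capitals mark matches to any of 7 motifs.
Jph2: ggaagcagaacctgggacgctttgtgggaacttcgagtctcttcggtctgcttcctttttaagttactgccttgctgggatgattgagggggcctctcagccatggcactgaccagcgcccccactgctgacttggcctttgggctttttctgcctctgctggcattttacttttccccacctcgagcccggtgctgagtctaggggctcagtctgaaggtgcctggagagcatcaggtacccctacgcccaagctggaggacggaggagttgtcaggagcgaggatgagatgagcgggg
Cacna1c: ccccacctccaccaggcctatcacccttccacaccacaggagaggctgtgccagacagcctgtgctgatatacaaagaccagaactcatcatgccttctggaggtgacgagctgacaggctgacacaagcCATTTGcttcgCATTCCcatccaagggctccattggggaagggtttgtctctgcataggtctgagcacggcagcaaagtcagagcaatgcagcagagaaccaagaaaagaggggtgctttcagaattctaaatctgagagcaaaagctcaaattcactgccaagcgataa
The motifs were searched on both strands and overlaps between them were allowed. They were the MEF2 motif, the CArG box of serum response factor, a GATA factor motif (AGATAA), the M-CAT element of TEAD factors (spelled CATTCC), the E-box bound by helix-loop-helix factors (spelled CANNTG), the box bound by the TATA-binding protein (spelled TATAAA) and the GC box bound by Sp1 (spelled GGGCGG). The window of Cacna1c held 1 E-box and 1 M-CAT match, and the Jph2 window held none of the 7. Over 33469 windows of the same length 72.1% held an E-box and 14.2% an M-CAT match. Of 8 members with an entry, Casq2 held the single MEF2 match, which 3.29% of all windows hold. Whether these starts are the ones used in these cells is not known from the tables used here.

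Ryr2, the release channel of the store, fell with the Btg1 siRNA and rose with the Btg2 siRNA alone. It stood at 55.8, 56.2 and 53.1 TPM in the double, 56.0, 50.9 and 48.9 TPM in the Btg1 and 74.3, 71.5 and 76.9 TPM in the Btg2 knockdown, against 60.3, 59.1 and 60.3 TPM in scramble cultures. The groups with the Btg1 siRNA lay below scramble and the Btg2 knockdown above it, without overlap. The log2 change was -0.13 ± 0.04 in the double (SE, edgeR adjusted p = 0.0089), -0.20 ± 0.04 in the Btg1 (edgeR adjusted p = 2.8e-04) and 0.31 ± 0.04 in the Btg2 knockdown (edgeR adjusted p = 2.5e-06). Set against the Btg2 knockdown, the double knockdown was lower by a log2 change of -0.45 ± 0.04 (edgeR adjusted p = 7.8e-09). The call in the double knockdown against scramble ended with limma on log2(TPM + 1), at an adjusted p of 0.080 (0.0026 to 0.080 over 21 alternatives).

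Trdn, which anchors calsequestrin to the release channel, was lower with the Btg1 siRNA. It stood at 52.9, 62.2 and 49.1 TPM in the double, 51.3, 49.0 and 47.0 TPM in the Btg1 and 55.7, 67.0 and 69.8 TPM in the Btg2 knockdown, against 66.7, 62.4 and 68.7 TPM in scramble cultures. Every Btg1 knockdown library was below every scramble library, while the highest double knockdown library lay just under the lowest scramble library. The fall was -0.42 ± 0.09 in the Btg1 knockdown (log2, SE, edgeR adjusted p = 0.0024) and -0.28 ± 0.09 in the double knockdown (edgeR adjusted p = 0.024). The Btg2 knockdown gave -0.03 (95% interval -0.23 to 0.16), which did not pass. The double knockdown call ended without scramble replicate 1 or 3 or double knockdown replicate 1 or 3 (edgeR adjusted p = 0.066, 0.073, 0.080 and 0.099), and with no filter (0.061; 6.6e-04 to 0.099 over 21 alternatives).

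Casq2, the calcium buffer of the store, moved opposite to Trdn in the 2 groups given the Btg1 siRNA. It stood at 976.9, 1056.8 and 954.4 TPM in the double, 1086.5, 1091.3 and 1128.9 TPM in the Btg1 and 827.4, 885.0 and 921.7 TPM in the Btg2 knockdown, against 880.0, 897.9 and 946.3 TPM in scramble cultures. The Btg1 knockdown stood clear above scramble, the double knockdown just above it, and the Btg2 knockdown overlapped it. Casq2 rose in the Btg1 knockdown (log2 change 0.28 ± 0.05, SE, edgeR adjusted p = 3.4e-05) and in the double knockdown (0.12 ± 0.05, edgeR adjusted p = 0.040), and did not pass in the Btg2 knockdown at -0.04 (95% interval -0.14 to 0.05). The double knockdown call ended without scramble replicate 1 or 2 or double knockdown replicate 2 (edgeR adjusted p = 0.15, 0.11 and 0.23; 0.018 to 0.23 over 21 alternatives).

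Within a library the ratio of Ryr2 to Casq2, a measure that does not depend on how libraries are scaled, was 0.0553 ± 0.0020 in the double, 0.0472 ± 0.0041 in the Btg1 and 0.0847 ± 0.0046 in the Btg2 knockdown, against 0.0660 ± 0.0024 in scramble cultures (SD, n = 3 each). No knockdown group overlapped scramble. Each of these differences had an exact permutation p of 0.10 (two-sided), the smallest that 3 libraries against 3 allow, so none can pass 0.05.

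Atp2a2, the SERCA2 pump that refills the store, rose in the Btg2 knockdown. It stood at 813.8, 816.1 and 829.9 TPM in the double, 741.0, 763.7 and 731.3 TPM in the Btg1 and 957.3, 977.6 and 914.3 TPM in the Btg2 knockdown, against 821.9, 803.5 and 821.3 TPM in scramble cultures. The double knockdown overlapped scramble, the Btg1 knockdown lay below it and the Btg2 knockdown above it. The log2 change was 0.23 ± 0.05 in the Btg2 knockdown (SE, edgeR adjusted p = 5.7e-04) and -0.13 ± 0.05 in the Btg1 knockdown (edgeR adjusted p = 0.034). In the double knockdown it was -0.0039 with a 95% interval of -0.10 to 0.09 and did not pass (edgeR adjusted p = 0.96), and its sign turned with RLE scaling. The Btg1 knockdown call ended without any 1 of the 3 scramble replicates (edgeR adjusted p = 0.11, 0.061 and 0.090 without replicates 1 to 3) or without Btg1 knockdown replicate 1 or 3 (0.11 and 0.062; 0.0070 to 0.11 over 21 alternatives).

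Pln, the inhibitor of the pump, fell in both groups given the Btg1 siRNA. It stood at 866.7, 885.0 and 862.8 TPM in the double, 849.9, 822.8 and 809.7 TPM in the Btg1 and 1082.0, 1115.3 and 1096.2 TPM in the Btg2 knockdown, against 1090.6, 1034.8 and 1103.3 TPM in scramble cultures. The 6 libraries with the Btg1 siRNA lay below the 6 without it, and the Btg2 knockdown overlapped scramble. Pln fell to 81.0% of its scramble TPM in the double and 76.9% in the Btg1 knockdown, log2 changes of -0.32 ± 0.04 and -0.37 ± 0.04 (SE, edgeR adjusted p = 5.9e-07 and 5.6e-08). In the Btg2 knockdown its change of 0.03 (95% interval -0.04 to 0.11) did not pass. The difference between the double and the Btg1 knockdown did not pass either (0.06, 95% interval -0.02 to 0.14).

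Sln, the other small inhibitor of the pump, was listed at 13.7, 13.0 and 13.5 TPM in the double, 14.1, 15.4 and 21.0 TPM in the Btg1 and 21.9, 14.5 and 15.8 TPM in the Btg2 knockdown, against 19.4, 16.3 and 17.2 TPM in scramble cultures. The double knockdown libraries lay below all others, yet the log2 change of -0.41 ± 0.19 against scramble did not pass (SE, edgeR adjusted p = 0.099). It was the member called in none of 6 comparisons; at 53 to 128 reads its 95% interval in the double knockdown ran from -0.80 to -0.01. The 9 atrial markers summed to 5779 to 6100 TPM in the double, 6182 to 7278 TPM in the Btg1 and 6292 to 7484 TPM in the Btg2 knockdown, against 5159 to 5564 TPM in scramble cultures, and Bmp10 among them was listed at 0 in all but the Btg1 knockdown. Nppa made up most of these sums, at 4982 TPM in scramble cultures (5248, 6046.5 and 6357 TPM in the double, Btg1 and Btg2 knockdowns). Nppa rose in the single knockdowns and was not called in the double knockdown. Of the 8 tested, 2 rose and 1 fell (37.5% called) in the double knockdown. In the Btg1 knockdown 3 rose and 2 fell (62.5%), and in the Btg2 knockdown 4 rose (50%). Of all genes 38.9%, 36.5% and 30% were called there. The part of the atrial markers in the Sln values was not tested.

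The ratio of Pln to Atp2a2, inhibitor over pump at the level of RNA, was lower in each knockdown group. It was 1.06 ± 0.022 in the double, 1.11 ± 0.035 in the Btg1 and 1.16 ± 0.037 in the Btg2 knockdown, against 1.32 ± 0.029 in scramble cultures (SD, n = 3 each). No knockdown library reached the scramble range of 1.29 to 1.34, with an exact two-sided permutation p of 0.10 in each comparison, the smallest possible. In the Btg1 knockdown both genes of the pair were lower than in scramble; in the Btg2 knockdown Atp2a2 was higher and Pln did not pass.

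**Figure D3:**
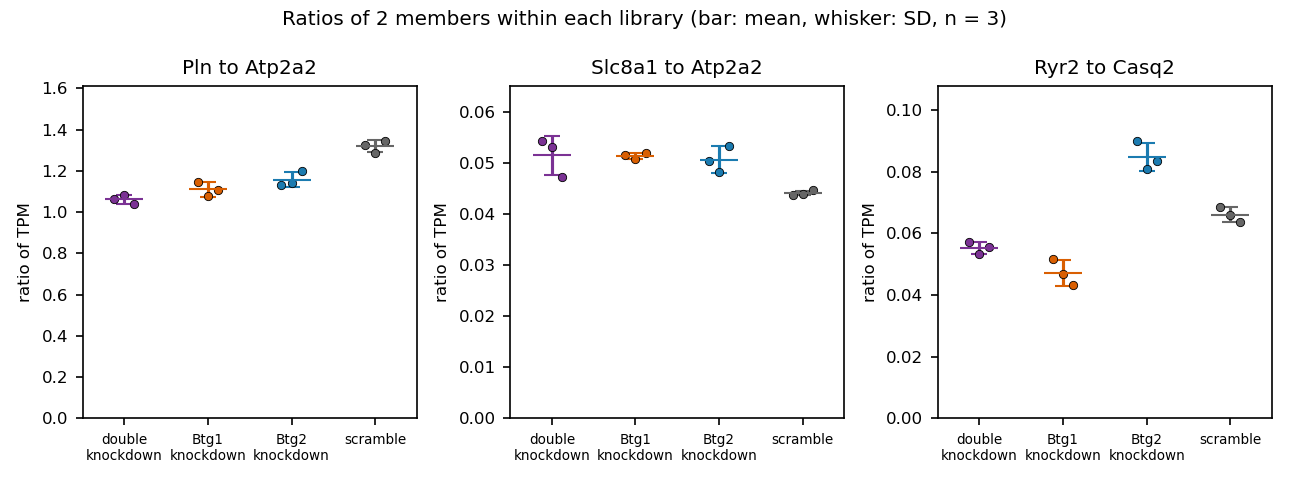
Ratios of TPM of 2 members within each library (vertical axes from 0); points are libraries, bars are group means and whiskers are SDs (n = 3). The Pln to Atp2a2 ratio is highest in scramble cultures at 1.32, the Slc8a1 to Atp2a2 ratio is lowest there, and the Ryr2 to Casq2 ratio is highest in the Btg2 knockdown at 0.0847.

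Slc8a1, the exchanger that removes calcium across the surface membrane, rose in the 2 groups given the Btg2 siRNA. It stood at 44.2, 43.5 and 39.2 TPM in the double, 38.3, 38.8 and 38.0 TPM in the Btg1 and 48.3, 47.2 and 48.9 TPM in the Btg2 knockdown, against 36.0, 35.4 and 36.7 TPM in scramble cultures. All knockdown libraries were above all scramble libraries, most in the Btg2 knockdown. The log2 change was 0.22 ± 0.04 in the double (SE, edgeR adjusted p = 1.5e-04) and 0.42 ± 0.04 in the Btg2 knockdown (edgeR adjusted p = 4.9e-08). The Btg1 knockdown gave 0.09 ± 0.04 and did not pass (edgeR adjusted p = 0.073), but did with DESeq2 (0.037), with only the groups compared (0.047) and without double knockdown replicate 3 (0.037 to 0.21 over 21 alternatives). The ratio of Slc8a1 to Atp2a2 was 0.0516 ± 0.0038 in the double, 0.0515 ± 0.0006 in the Btg1 and 0.0507 ± 0.0026 in the Btg2 knockdown, against 0.0442 ± 0.0005 in scramble cultures (SD, n = 3 each; exact two-sided permutation p = 0.10 in each comparison, the smallest possible).

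The single knockdowns also served as baselines for the second siRNA. Adding the Btg2 siRNA to the Btg1 siRNA, that is the double against the Btg1 knockdown, changed 4 members, 1 higher (Slc8a1) and 3 lower (Casq2, Cacna1c and Jph2), where 22.3% of all genes were called (10.3% higher and 11.9% lower). The count of members changed was 2 without double knockdown replicate 1 and 2 without Btg1 knockdown replicate 3, when Slc8a1 and Casq2 no longer passed. The libraries of 7 members did not overlap in this comparison, where 34.6% of all genes did not. The Slc8a1 rise of 0.12 ± 0.04 (SE, edgeR adjusted p = 0.031) also ended without double knockdown replicate 2 or Btg1 knockdown replicate 1, with only the groups compared and with limma on either TPM scale (0.0030 to 0.14 over 21 alternatives). Atp2a2, at 0.12 ± 0.05 (SE, edgeR adjusted p = 0.059), did not pass but did in 7 of 21 alternatives, among them DESeq2 (0.012) and no filter (0.033; 0.0094 to 0.17 over all 21). Adding the Btg1 siRNA to the Btg2 siRNA, that is the double against the Btg2 knockdown, changed 5 members, 1 higher (Casq2, 0.16 ± 0.05) and 4 lower, against 32.2% of all genes (15.2% higher and 17% lower), and 6 members did not overlap, against 42.1% of all genes. The 4 were Ryr2 (-0.45 ± 0.04), Pln (-0.35 ± 0.04), Atp2a2 (-0.23 ± 0.05) and Slc8a1 (-0.20 ± 0.04; log2, SE), with edgeR adjusted p-values of 7.8e-09 (Ryr2) to 4.2e-04 (Slc8a1). The Casq2 rise (edgeR adjusted p = 0.0080) ended without double knockdown replicate 2 (0.064) or Btg2 knockdown replicate 1 (0.069; 8.2e-04 to 0.069 over 21 alternatives). Trdn, at -0.24 ± 0.09 (SE, edgeR adjusted p = 0.051), did not pass but did in 4 of 21 alternatives, among them DESeq2 (0.0070; 0.0012 to 0.19 over all 21).

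Departure from additive effects was tested as the double knockdown change minus the sum of the single knockdown changes. It passed for 3 of 9 members, all below the sum, where 15.1% of all genes were called, 4.99% above and 10.1% below the sum. Slc8a1 changed by 0.22 in the double knockdown, against a sum of 0.52, a difference of -0.30 ± 0.06 (log2, SE, edgeR adjusted p = 8.8e-04). Ryr2 changed by -0.13, against a sum of 0.11, a difference of -0.25 ± 0.06 (edgeR adjusted p = 0.0036). Jph2 changed by -0.47, against a sum of -0.05, a difference of -0.42 ± 0.10 (edgeR adjusted p = 0.013). Ryr2 did not pass with limma on log2(TPM + 1) or log2(TPM + 0.1) (adjusted p = 0.061 in both; 9.7e-05 to 0.061 over 20 alternatives), nor Jph2 with no filter (0.052; 2.8e-04 to 0.052 over 20 alternatives). Pln differed from the sum by 0.02 (not called, 95% interval -0.09 to 0.14), and Cacna1c missed the threshold at -0.15 ± 0.05 (edgeR adjusted p = 0.067). Cacna1c did pass with DESeq2 (adjusted p = 0.047) and with edgeR without Btg1 knockdown replicate 3 (adjusted p = 0.037). Its adjusted p ran from 0.037 to 0.29 over 20 alternatives. The sum did not hold the targets at equal levels. Btg1 and Btg2 were each lower in the double than in the matching single knockdown, by log2 changes of -0.36 and -0.31.

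**Figure D4:**
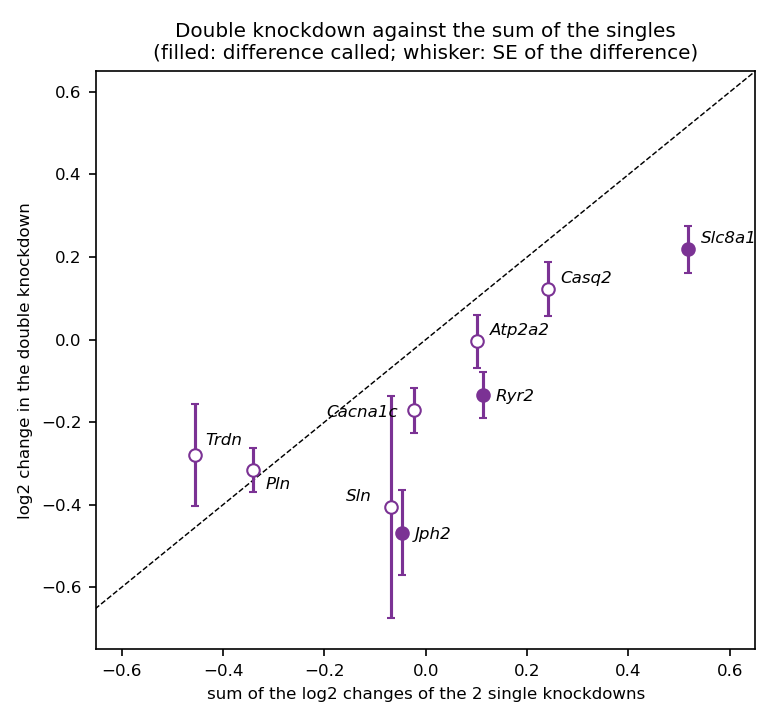
Log2 change of each member in the double knockdown (vertical axis) against the sum of its log2 changes in the Btg1 and Btg2 knockdowns (horizontal axis); the dashed line marks equality, whiskers are the SE of the difference and filled points passed an adjusted p of 0.05. Slc8a1, Ryr2 and Jph2 are filled and lie below the line, and Pln lies within its whisker of the line.

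The members with the longest gene models were those that rose in the Btg2 knockdown, and length moved with the change over all genes. Among 9658 genes averaging at least 5 TPM, the median log2 change in the Btg2 knockdown against scramble was 0.12 in the longest of 10 equal length classes (966 genes) and -0.07 in the shortest class. For the departure from additivity these medians were -0.10 and 0.04. Slc8a1, Ryr2, Atp2a2 and Cacna1c were all in the longest class, and Cacna1c was lower, not higher, in the Btg2 knockdown (-0.18). Jph2 was in class 5, whose median was -0.02 in the Btg2 knockdown. In the double and Btg1 knockdowns the medians of the longest class were 0.04 and 0.04. The part of length in the members' changes was not tested.

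**Figure D5:**
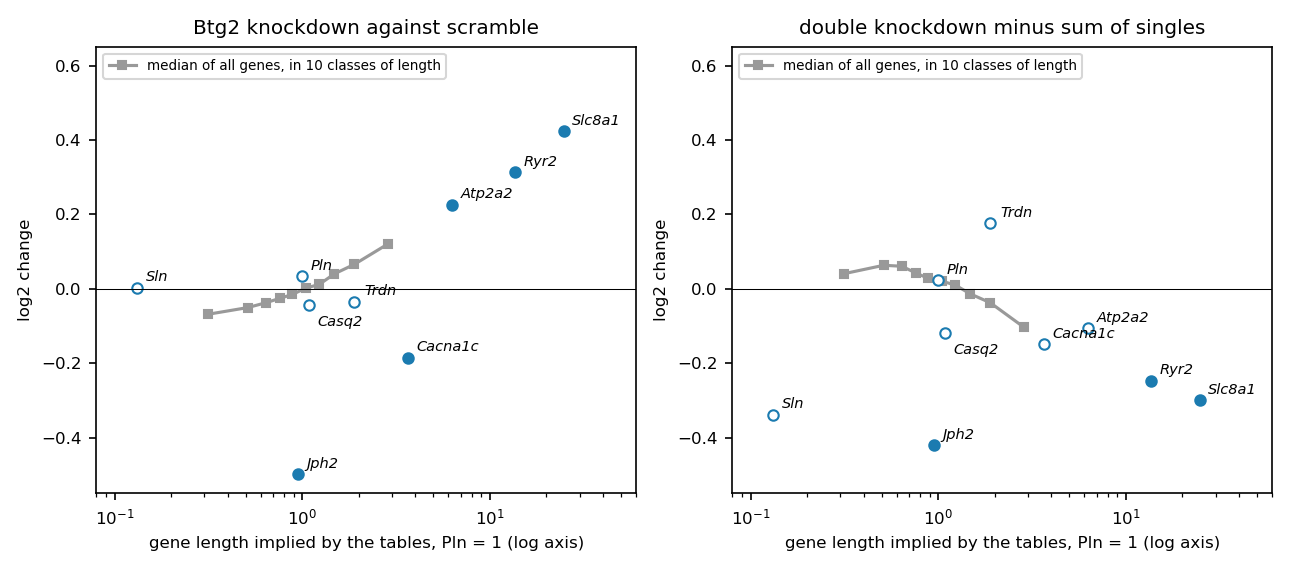
Log2 change of the 9 members (circles, filled where called) against the gene length implied by the count and TPM tables, relative to Pln (log axis), in the Btg2 knockdown against scramble (left) and for the double knockdown minus the sum of the singles (right); squares are medians of all genes in 10 classes of length. The median of the longest class is 0.12 on the left and -0.10 on the right. In that class Slc8a1, Ryr2, Atp2a2 and Cacna1c are at 0.42, 0.31, 0.23 and -0.18 on the left. On the right they are at -0.30, -0.25, -0.10 and -0.15. Jph2, in class 5, is at -0.50 on the left and -0.42 on the right.

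Genes whose pattern over the 12 libraries was nearest to a member were ranked by the root mean square difference of log2 CPM (library-scaled counts) centred on each gene's mean, among 9773 non-member genes of at least 5 CPM. This was done for the 3 members with the widest range of group means. The genes named were picked for the smallest differences, so they lie below the median by choice. For Jph2 the nearest were the kinesin gene Kifc1 (0.10, against a median of 0.42 over all genes) and the histone chaperone gene Asf1b (0.11). Kifc1 stood at 9.67 TPM in the double, 16.6 TPM in the Btg1 and 8.97 TPM in the Btg2 knockdown, against 12.6 TPM in scramble cultures. For Ryr2 the nearest were the phosphatase gene Ppm1a (0.03, median 0.23) and the tankyrase gene Tnks2 (0.05). Ppm1a stood at 148 TPM in the double, 134 TPM in the Btg1 and 194 TPM in the Btg2 knockdown, against 160 TPM in scramble cultures. For Slc8a1 they were Arfgef1 and Adam19 (0.04 each, median 0.20).

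A wider list of 68 other calcium handling genes had 62 rows, all tested. In the double knockdown 18 rose and 14 fell, in the Btg1 knockdown 20 rose and 12 fell, and in the Btg2 knockdown 14 rose and 13 fell, which is 51.6%, 51.6% and 43.5% of them, where 38.9%, 36.5% and 30% of all genes were called. Their median log2 change was 0.05, 0.04 and 0.0001 in the 3 comparisons, where that of all genes was -0.0061, -0.0011 and -0.0017. Departure from additivity was called for 16 (25.8%, against 15.1% of all genes), with 3 above and 13 below the sum. That count was 9 with limma on log2(TPM + 0.1) and without scramble replicate 1 or 2, and 10 without Btg2 knockdown replicate 1 or 2.

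Among 14 release channel partners, 4 rose and 4 fell in the double, 5 rose and 4 fell in the Btg1 and 2 rose and 3 fell in the Btg2 knockdown. That is 57.1%, 64.3% and 35.7% of them called, where 38.9%, 36.5% and 30% of all genes were called. Casq1, the calsequestrin known mainly from fast skeletal muscle, stood at 186.6, 206.1 and 200.3 TPM in the double and 289.3, 268.5 and 292.0 TPM in the Btg1 knockdown. It stood at 130.6, 123.2 and 150.4 TPM in the Btg2 knockdown and 129.7, 132.8 and 146.0 TPM in scramble cultures. The Btg1 knockdown stood highest and the double knockdown between it and scramble, while the Btg2 knockdown overlapped scramble; the log2 changes were 0.53 ± 0.06 in the double and 1.06 ± 0.06 in the Btg1 knockdown (SE, edgeR adjusted p = 4.9e-07 and 4.3e-11). The skeletal muscle marker list, which holds Casq1, had 9 of 10 genes in the table and summed to 1755 to 1966 TPM in the double, 2069 to 2470 TPM in the Btg1 and 1739 to 1875 TPM in the Btg2 knockdown, against 1488 to 1727 TPM in scramble cultures. Of its 4 tested genes 2 rose in the double and 3 in the Btg1 knockdown, where 19.4% and 18.7% of all genes rose. Ckm among the 4 did not pass, with log2 changes of 0.03 and -0.07 (edgeR adjusted p = 0.64 and 0.20). It averaged 700 TPM in the double and 644 TPM in the Btg1 knockdown, against 680 TPM in scramble cultures. Besides Casq1, the actin gene Acta1 averaged 1332 TPM in the Btg1 knockdown, against 822 TPM in scramble cultures (log2 change 0.70 ± 0.15, SE, edgeR adjusted p = 0.0052). The fast muscle pump gene Atp2a1 averaged 2.03 TPM in the double and 2.43 TPM in the Btg1 knockdown, against 1.03 TPM in scramble cultures (log2 changes 0.99 ± 0.18 and 1.25 ± 0.18, SE, edgeR adjusted p = 1.5e-04 and 8.3e-06). The 5 genes too low to test were Myod1, listed at 0 in every group, and Myh1, Myh2, Myh4 and Myog, at 0 to 0.2 TPM in the group means. The part of these markers in the Casq1 values was not tested. Asph, whose locus also encodes the store protein junctin, a partner of triadin, averaged 8.57 TPM in the double knockdown, against 13.2 TPM in scramble cultures, and fell by 0.63 on the log2 scale (SE 0.09, edgeR adjusted p = 3.9e-06). It averaged 9.8 TPM in the Btg1 and 14.7 TPM in the Btg2 knockdown.

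Other subunits and regulators of surface calcium channels gave 4 rises and 3 falls of 11 in the double, 4 rises and 3 falls in the Btg1 and 6 rises in the Btg2 knockdown. Of the 11, 63.6%, 63.6% and 54.5% were called, where 38.9%, 36.5% and 30% of all genes were. Cacna1h, the pore of a T-type channel typical of immature heart muscle, averaged 34.1 ± 2.84 TPM in the double and 34.2 ± 0.907 TPM in the Btg2 knockdown, against 23.1 ± 0.721 TPM in scramble cultures (SD, n = 3 each). Its log2 changes were 0.55 ± 0.05 and 0.57 ± 0.05 (SE, edgeR adjusted p = 1.4e-08 and 2.3e-08), opposite in sign to those of the L-type pore Cacna1c in the same comparisons. In the Btg1 knockdown Cacna1h averaged 26.6 TPM. The auxiliary subunit genes Cacna2d1 and Cacnb2 rose by 0.51 ± 0.05 and 0.37 ± 0.04 in the Btg2 knockdown (log2, SE, edgeR adjusted p = 3.1e-08 and 2.5e-07). Cacna2d1 averaged 12.8, 17.3 and 17.5 TPM in the double, Btg1 and Btg2 knockdowns, against 12.3 TPM in scramble cultures. Cacnb2 averaged 69.4, 62.7 and 73.5 TPM in the same order, against 56.9 TPM in scramble cultures. Rrad, a small GTPase that restrains the L-type channel, averaged 276 TPM in the double knockdown, against 399 TPM in scramble cultures, a log2 change of -0.54 ± 0.08 (SE, edgeR adjusted p = 2.0e-04). It averaged 273 TPM in the Btg1 and 352.5 TPM in the Btg2 knockdown.

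Of 7 genes of junction and T-tubule structure 1 rose and 3 fell in the double, 1 rose and 2 fell in the Btg1 and 2 rose and 3 fell in the Btg2 knockdown. These calls make up 57.1%, 42.9% and 71.4% of the 7, where 38.9%, 36.5% and 30% of all genes were called. Bin1, a membrane-bending protein of T-tubules, stood at 14.6, 14.5 and 14.5 TPM in the double, 16.1, 15.4 and 15.8 TPM in the Btg1 and 22.0, 23.9 and 21.8 TPM in the Btg2 knockdown, against 26.6, 30.2 and 27.8 TPM in scramble cultures. All 9 knockdown libraries were below the scramble libraries, and the log2 changes were -0.97 ± 0.06, -0.83 ± 0.06 and -0.32 ± 0.06 (SE, edgeR adjusted p = 5.7e-11, 7.9e-10 and 4.4e-04).

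In the double, Btg1 and Btg2 knockdowns against scramble 38.9%, 36.5% and 30% of all genes were called. Of 9 other store pump and regulator genes 5 rose and 1 fell (66.7% called) in the double knockdown. In the Btg1 knockdown 4 rose and 1 fell (55.6%), and in the Btg2 knockdown 3 fell (33.3%). Of 5 other surface extrusion genes no gene passed edgeR in the double knockdown, where unadjusted p-values ran from 0.11 to 0.56. Of these 5, 2 rose (40% called) in the Btg1 and 1 rose and 1 fell (40%) in the Btg2 knockdown. Of 10 store refilling and reticulum genes 2 rose and 2 fell (40% called) in the double knockdown. In the Btg1 knockdown 3 rose and 2 fell (50%), and in the Btg2 knockdown 2 rose and 1 fell (30%). The 10 included the chaperone Calr, at 1030 ± 19.8 TPM in the Btg1 knockdown, against 1545 ± 50.2 TPM in scramble cultures (SD, n = 3 each; log2 change -0.58 ± 0.04, SE, edgeR adjusted p = 1.5e-10). Calr averaged 1112 TPM in the double and 1492 TPM in the Btg2 knockdown. Of 6 mitochondrial calcium genes 2 rose and 1 fell (50% called) in the double knockdown. In the Btg1 knockdown 1 rose (16.7%), and in the Btg2 knockdown 1 rose and 2 fell (50%). The mitochondrial exchanger Slc8b1 averaged 23.0 TPM in the Btg2 knockdown, against 29.4 TPM in scramble cultures (log2 change -0.35 ± 0.06, SE, edgeR adjusted p = 4.6e-05). It averaged 25.4 TPM in the double and 29.8 TPM in the Btg1 knockdown.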

How the data were processed

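RNA from cultures of neonatal rat ventricular cells was measured in 12 libraries, 3 in each of 4 siRNA groups. The authors deposited whole-number counts per gene and a table of TPM values. Per the submitters' processing notes the tools were FastQC, Trim Galore, cutadapt, STAR and featureCounts with the rat build rn5; versions, annotation and strand setting are not stated there, so overlapping genes cannot be told apart by strand. Per the labels' protocols, RNA was amplified before tagmentation and sequenced in pairs, so counts are not independent molecules.

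Counts were fitted for all 12 libraries with edgeR 4.0.16 in R 4.3.3 (TMM scaling, filterByExpr by group, 1 mean per group, robust glmQLFit, 8 residual degrees of freedom, quasi-likelihood F test), with Benjamini-Hochberg adjustment over 12535 genes and calls at 0.05. The filter removed 4884 of 17419 genes. Each SE was taken as the log2 change, unsigned, divided by the root of its F value. TPM served for levels and for ratios within a library, tested by exact permutation. Alternatives used DESeq2 1.42.0, limma 3.58.1 on log2(TPM + 1) or log2(TPM + 0.1), other scalings and filters, only the groups compared, a replicate block, and each library left out. Residual correlations showed no pairing of libraries by replicate number, which 3 libraries per group cannot exclude. No libraries agreed within sampling noise. The fitting script was tested on simulated data.

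The members and lists were chosen with earlier results of these data known. Among other calcium genes, the text names per comparison against scramble up to 4 called genes with the largest log2 change, averaging at least 5 CPM and not overlapping between groups; 1 gene that this rule names is not reported here. For the 3 members of widest range it names the 2 genes of nearest pattern. The skeletal muscle markers other than Casq1, and Bmp10, Nppa and Acta2, were named after their values were seen. Promoter sequences are from RefSeq with the GRCr8 assembly, and 8 of 9 members matched; Sln was the other.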

Additional observations from a re-analysis of the deposited data

Results flagged for a closer look

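The effect of the Btg2 siRNA differed with and without the Btg1 siRNA for 3 members, by the edgeR interaction term over all 4 groups. The log2 effect with the Btg1 siRNA minus that without it was -0.25 for Ryr2 (SE 0.06), -0.30 for Slc8a1 (SE 0.06) and -0.42 for Jph2 (SE 0.10). The scrambled siRNA dose differed between these groups (0, 10, 10 and 20 nM in the double knockdown, Btg1 knockdown, Btg2 knockdown and scramble cultures), and its part in the difference cannot be told apart. Both targets were also lower in the double than in the matching single knockdown. The log2 changes were -0.36 ± 0.05 for Btg1 and -0.31 ± 0.04 for Btg2 (SE, edgeR adjusted p = 5.6e-06 and 6.2e-06). Btg2 was higher in the Btg1 knockdown than in scramble cultures (0.34 ± 0.04, edgeR adjusted p = 7.5e-07). The part of these target levels cannot be told apart either.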

How the results depend on the processing

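No called change of a member took the opposite sign under any alternative run. Values that did turn sign had not passed the test. Atp2a2 in the double knockdown against scramble gave 0.0016 with DESeq2 and with RLE scaling, 2e-04 with no filter, 0.0018 with only the groups compared and 0.0077 with limma on either TPM scale, and -0.0202 to 0.0066 with 1 library left out. In the Btg2 knockdown against scramble, Pln gave -9e-04 with library size alone, and Sln gave -0.0306 with library size alone, -0.0115 with the replicate block, -0.0357 with limma on log2(TPM + 1) and -0.0385 on log2(TPM + 0.1). With 1 library left out, Sln ran from -0.2657 to 0.0638 in the Btg1 and from -0.2077 to 0.0978 in the Btg2 knockdown, Trdn from -0.0856 to 0.0576 in the Btg2 knockdown, and Jph2 from -0.0458 to 0.0851 between the double and the Btg2 knockdown. The number of members called with 1 library left out was 5 to 7, 6 to 8 and 5 to 5 in the double, Btg1 and Btg2 knockdowns against scramble, 2 to 5 in the double against the Btg1 knockdown, 5 to 5 in the double against the Btg2 knockdown and 3 to 4 for the departure from additivity. For that departure, the other calcium genes called numbered 9 with limma on log2(TPM + 0.1), and 9 to 15 with 1 library left out, against 16. The cause of these shifts was not tested.

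Libraries with the same replicate number had residual correlations of -0.09 to 0.06 over 18 pairs, none over 0.1, and 5 of 12 libraries correlated best with their own number. With the replicate block the members called numbered 7, 7 and 5 against scramble, 4 and 5 between the double and the single knockdowns, and 3 for the departure from additivity, the same numbers as without it. Sln had the fewest reads of the members, 53 to 128 in a library.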
